A study of Caenorhabditis elegans with 10 samples.

Results

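Circular RNAs (circRNAs) of 2 cell-junction genes, *afd-1* and *pat-12*, were compared between wild-type and *nova-1* mutant *C. elegans*. A circRNA forms by back-splicing, in which the spliceosome joins an exon's end to a start that lies before it, and it is counted from reads that cross this back-splice junction. Of the 141 circRNA loci in the count table, 6 belonged to these genes, 5 to *afd-1* and 1 to *pat-12*. A locus was a member when the study's list of detected circRNAs named one of the genes as host at the same coordinates, or at the only entry of the chromosome whose start differed by at most 150 nt and whose span differed by at most 1 nt. No measured value entered this rule, but the 2 genes were chosen with earlier results of these data known. All 6 loci had a count in every sample. The count table is shorter than the study's list of detected circRNAs. Percentages over all loci therefore describe this table only.

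The samples were hermaphrodites on day 3 of adulthood, 5 replicates of wild-type (strain N2) and 5 of the *nova-1* mutant (strain VDL1105), grown on *E. coli* OP50 and kept from the L4 stage on plates with FUdR, which prevents progeny, in both genotypes. The study describes the replicates as independent biological samples, and the mutant as a single outcrossed deletion strain. NOVA-1 is the worm homolog of the mammalian NOVA proteins, RNA-binding proteins that regulate splicing. Each sample is a pool of whole animals, so fewer cells that express a host gene and less RNA per cell cannot be told apart. No locus of the table was linked to *nova-1* itself, and the mutation was not checked here.

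Epithelial cells are held to their neighbours by adherens junctions, and the epidermis of the worm is also anchored to the muscle below it and to the cuticle above it. Afadin, the mammalian relative of AFD-1, is an actin-binding protein of adherens junctions. In *C. elegans* AFD-1 is found at the apical junction of epithelia together with cell adhesion molecules. PAT-12 is a protein of the fibrous organelles, the hemidesmosome-like attachments by which the epidermis passes the pull of the body wall muscle to the cuticle, and embryos that lack it arrest paralysed. Both genes are long and have many annotated transcripts, and back-spliced exons in animals are often flanked by long introns.

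The 5 *afd-1* loci came from 1 stretch of the gene and formed 3 isoforms. The gene (WBGene00021009) lies on the plus strand of chromosome I at 2160038 to 2209644 in WBcel235, with 15 annotated transcripts. The isoform termed long here spanned 2172004 to 2174984 and covered 4 exons of 167, 113, 98 and 96 nt. The middle isoform spanned 2173754 to 2174984 and lacked the first of these exons. The short isoform ran from the start of the same second exon to the end of the third, 2173754 to 2174022. With introns removed, the 3 circles would measure 474, 307 and 211 nt. The long and middle isoforms thus share the end and differ in the start, whereas the middle and short isoforms share the start and differ in the end. All these exons are coding in the annotation, none overlaps a UTR in the transcripts that contain both ends of the locus (5 transcripts for the long isoform, 7 for the others), and no other annotated gene overlaps the stretch.

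The introns around the *afd-1* circles were long. Upstream of the middle and short isoforms lies an intron of 1583 nt, and upstream of the long isoform one of 3571 to 5873 nt, depending on the transcript. The long and middle isoforms share a downstream intron of 10754 nt, and the short isoform has one of 866 nt. The median intron was 1377 nt among the 24 of *afd-1* and 68 nt over 109051 introns of protein-coding transcripts. The *pat-12* circRNA had shorter introns around it, though these also exceeded the median of 68 nt. Its gene (WBGene00003936) lies on the minus strand of chromosome III at 727207 to 752426, and the locus (cel_circ_0000304) covered 3 exons of 129, 87 and 93 nt, listed 5′ to 3′, or 309 nt without introns. Its upstream intron has 101 nt and its downstream intron 154 to 447 nt, against a median of 218 nt for the 36 introns of this gene. All 3 exons lie in annotated coding sequence of the gene, and a UTR among the 6 transcripts that contain both ends also overlaps the locus's exons.

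**Figure D1:**
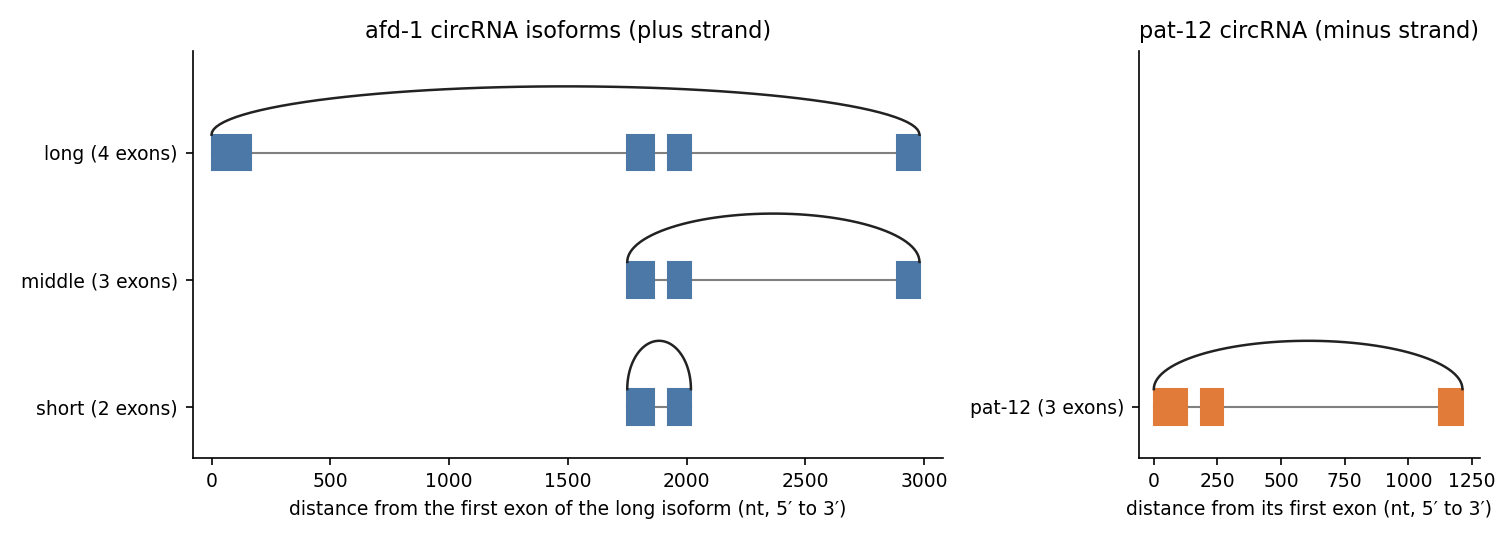
Exons of the circRNAs to scale, with boxes for exons, grey lines for introns and an arc joining the back-spliced ends; the horizontal axes give the distance in nt along the transcript. The 3 *afd-1* isoforms share the 113-nt and 98-nt exons, and the *pat-12* circRNA covers 3 exons of 129, 87 and 93 nt.

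Coordinates in the table needed care. The long and middle isoforms were each listed at 2 loci, one at the annotated exon ends (start 2172004, cel_circ_new_0000733, and start 2173754, cel_circ_0000038) and one shifted by 1 nt at both ends (start 2172005, cel_circ_new_0000732, and start 2173755, cel_circ_new_000735). The short isoform (cel_circ_new_0000735, whose ID differs from the last by 1 zero) was listed only at the shifted position, 2173755 to 2174023. The table gave the *pat-12* circRNA at 730586 to 731798, the study's list at 730591 to 731804, and the annotated exons run from 730592 to 731804. The table thus stands 6 nt below the annotation at both ends, and no coordinate was converted.

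At the paired loci the counts were nearly equal. The lower-start locus of the middle isoform had 16, 58, 63, 46 and 62 counts in wild-type replicates 1 to 5 and 82, 64, 55, 50 and 49 counts in *nova-1* replicates 1 to 5. The upper-start locus had 23, 81, 70, 51 and 62 counts and 59, 76, 52, 54 and 47 counts in the same order. For the middle isoform, the locus at the annotated ends held 545 of the 1120 counts (48.7%), and the 95% Wilson interval of its share included 50% in each of the 10 samples. For the long isoform it held 121 of 232 counts (52.2%), and the interval included 50% in 9 samples. The exception was *nova-1* replicate 3 with 22 of 31 counts (71.0%, interval 53.4 to 83.9). The share of the lower-start locus was not distinguishable between genotypes for the middle pair, with 45.5% ± 3.93 in wild-type and 50.9% ± 4.68 in *nova-1* mutants (SD, n = 5; two-sided exact permutation test, p = 0.0952, adjusted p = 0.537 over the 7 shares compared), nor for the long pair (p = 0.960). Such pairs were not particular to *afd-1*. The table held 6 of them, all shifted by 1 nt at both ends, and the lower-start locus took 40.1% to 54.7% of the counts. The lowest share, for *F54A3.2*, had a Wilson interval of 33.5 to 47.1, which left out 50%. This interval pools the counts of all 10 samples and does not cover the spread between them. Whether paired loci have the same junction sequence was not tested, since no genome sequence was used here. The loci of a pair are therefore given separately and summed.

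**Figure D2:**
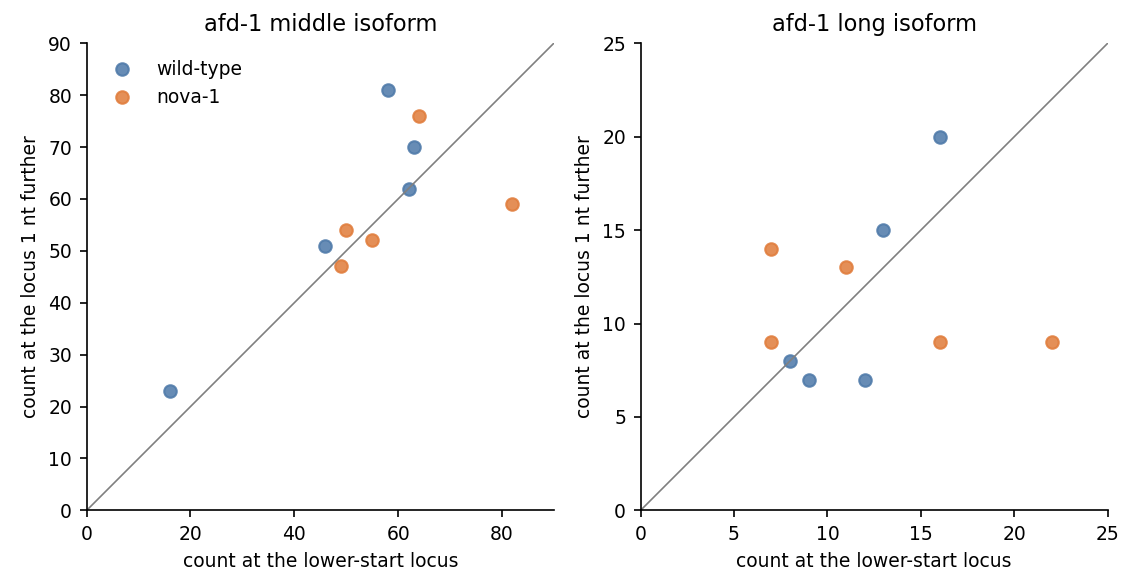
Count at the lower-start locus (horizontal axis) against the count at the locus 1 nt further (vertical axis) in each of the 10 samples, for the middle and the long isoform; the grey line marks equal counts. The points scatter on both sides of the line, around 545 against 575 counts in all for the middle isoform and 121 against 111 for the long one.

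With the loci of a pair summed, the middle isoform was the main *afd-1* circRNA in every sample. Each junction was counted on a scaffold of 200 nt, so scaffold length did not differ between isoforms. The middle and long isoforms were each counted at a pair of loci, however, and the short isoform at a single one. Summed over both loci, the middle isoform had 39, 139, 133, 97 and 124 counts in wild-type replicates 1 to 5 and 141, 140, 107, 104 and 96 counts in *nova-1* replicates 1 to 5. It exceeded the short isoform in 10 of 10 samples, by 1.68- to 8.09-fold and on average 4.10-fold (two-sided exact sign-flip permutation test over the 10 samples, p = 0.00195, the smallest p they allow). Tests of isoform order, here and for the short and long isoforms, were not planned, and the pairs were taken in the observed order. Locus by locus the excess was smaller. The lower-start locus of the middle isoform exceeded the short isoform in 9 of 10 samples and was below it in wild-type replicate 1 (16 against 23 counts), on average 1.98-fold higher. The upper-start locus exceeded it in 9 samples and equalled it in that replicate (23 counts), on average 2.12-fold higher (exact sign-flip permutation test over 10 samples, p = 0.00391 for each). After summing pairs, it ranked 11th by mean normalized count among 135 loci, with 113 against a median locus of 24.6.

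The short and long isoforms, again with loci summed, were close to the median locus. The short isoform had 23, 28, 35, 26 and 29 counts in wild-type and 17, 32, 34, 17 and 22 counts in *nova-1* mutants. The long isoform had 19, 36, 16, 28 and 16 counts in wild-type and 16, 21, 31, 25 and 24 counts in *nova-1* mutants. The short isoform was the higher of these in 6 of 10 samples, and their order did not hold up against the spread between samples (mean 1.14-fold, two-sided exact sign-flip permutation test, p = 0.285). This call turned on the summing, since the short isoform is 1 locus and the long isoform 2. The short isoform exceeded each long locus alone in 10 of 10 samples, by 1.06- to 4.33-fold for the lower-start and 1.39- to 4.73-fold for the upper-start locus (exact sign-flip permutation test over 10 samples, p = 0.00195 for each). A single locus holds only part of the long isoform's counts, 121 or 111 of 232 over all samples. These p therefore do not show which isoform was higher. The ranks of the short and the summed long isoform were 60 and 74 of 135.

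By mean normalized count, the *pat-12* circRNA lay between the middle isoform and the other *afd-1* circRNAs. Its counts were 80, 21, 35, 26 and 39 in wild-type replicates 1 to 5 and 69, 55, 45, 27 and 38 in *nova-1* replicates 1 to 5. Its rank was 31 of 135, with a mean of 42.9 normalized counts. Wild-type replicate 1 was the highest of all samples, and the other wild-type replicates overlapped with the mutants. The place between the isoforms held in each *nova-1* replicate, but in wild-type only in replicate 5. In wild-type replicate 1 *pat-12* was above the summed middle isoform (80 against 39 counts). In wild-type replicate 2 it was below the short and the summed long isoform (21 against 28 and 36).

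Wild-type replicate 1 stood apart. The samples held 7955 to 15014 circRNA counts each, and this replicate had the most. Its mean Spearman correlation with the other replicates of its genotype was 0.594, against 0.77 to 0.80 for the others. It had the fewest *afd-1* counts, 81 against 151 to 203 in the other wild-type replicates and 142 to 193 in the mutants, while its *pat-12* count was the highest. Within *afd-1*, the middle isoform was far below the other samples (39 against 96 to 141), whereas the short and long isoforms, with 23 and 19 counts, lay inside the range of the others. Relative to sequenced reads the same held, with 0.816 *afd-1* counts per 1000000 reads in this replicate and 1.44 to 2.30 in the other 9 samples. The main values below are therefore given with and without it.

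**Figure D3:**
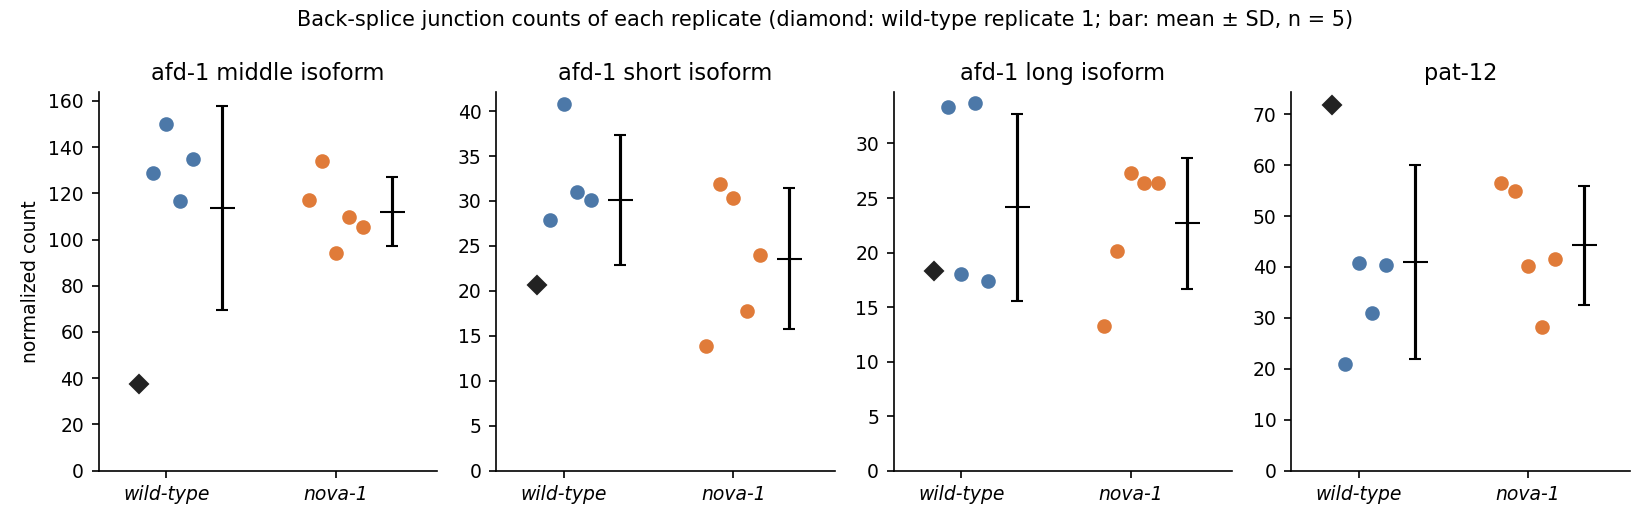
Normalized count (vertical axis) of each isoform and of the *pat-12* circRNA by genotype, with 1 point per replicate, the loci of a pair summed, and the mean ± SD (n = 5) beside the points. Wild-type replicate 1, the diamond, is lowest for the middle isoform (37.5) and highest for *pat-12* (71.8), and the genotypes overlap in all 4 panels.

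The main comparison asked whether loss of *nova-1* altered these circRNAs. None of the 6 loci was called in *nova-1* mutants by the first criterion, an absolute log2 fold change (log2FC) above 0.5 with *P* under 0.05, or by the second, a Benjamini–Hochberg adjusted *P* under 0.05 (edgeR quasi-likelihood *F*-test on all 141 loci). The study's methods state an unadjusted threshold and its results text an adjusted one, so both are given. None of the 6 reached an unadjusted *P* under 0.05, in edgeR or in DESeq2. Over all loci, 40.4% were called by the first criterion and 28.4% by the second. The genotypes overlapped at all 6 members, and they did not overlap at 24.8% of all loci. The median log2FC was -0.072 over the 6 members and -0.095 over all loci, and the median absolute log2FC was 0.13 and 0.53. A positive log2FC means more in the mutant. Without wild-type replicate 1 none of the 6 was called either, against 41.1% and 34% of all loci. The 6 loci are not independent, since the long and the middle *afd-1* isoform are each counted at a pair of loci. At these shares the lack of calls at so few circRNAs cannot set the members apart from the rest.

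Taken as a whole, *afd-1* circRNAs were not distinguishable between genotypes. All loci summed had 170 ± 58.3 normalized counts in wild-type and 159 ± 19.6 in *nova-1* mutants (SD, n = 5), a log2FC of -0.10 (standard error 0.26, 95% interval -0.63 to 0.43, adjusted *P* = 0.822, edgeR). Without wild-type replicate 1 the log2FC was -0.32 (interval -0.68 to 0.041, adjusted *P* = 0.173). When libraries were scaled by column totals alone it was 0.090, a setting that raised the median of all loci by 0.23.

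The middle isoform, with both loci summed, had 114 ± 44.2 normalized counts in wild-type and 112 ± 14.9 in *nova-1* mutants (log2FC -0.017, standard error 0.27, interval -0.58 to 0.55, adjusted *P* = 0.958, edgeR). As a fold, the interval ran from 0.669 to 1.46. Separately, its lower-start and upper-start loci had log2FC of 0.12 and -0.14 (adjusted *P* = 0.831 and 0.792), so that they differed in sign within their errors. The long isoform, summed, had 24.2 ± 8.57 and 22.7 ± 5.98 normalized counts (log2FC -0.098, standard error 0.32, interval -0.75 to 0.55, adjusted *P* = 0.858), and its loci separately had log2FC of -0.0013 and -0.20. The short isoform had 30.1 ± 7.23 and 23.6 ± 7.80 normalized counts, and its log2FC of -0.35 was the largest in size among the 6 loci (standard error 0.31, interval -0.97 to 0.28, adjusted *P* = 0.418). Without wild-type replicate 1 the log2FC was -0.27 for the summed middle isoform, -0.23 for the summed long isoform and -0.45 for the short isoform (adjusted *P* = 0.298, 0.638 and 0.260, edgeR).

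The *pat-12* circRNA had 41.0 ± 19.1 normalized counts in wild-type and 44.2 ± 11.7 in *nova-1* mutants (SD, n = 5), a log2FC of 0.11 (standard error 0.29, interval -0.50 to 0.71, adjusted *P* = 0.843, edgeR). As a fold, this interval ran from 0.709 to 1.63. Wild-type replicate 1 moved the value most. Without it the log2FC was 0.42 (interval -0.088 to 0.94, adjusted *P* = 0.216), still below both criteria, and with the filter on low counts in edgeR it was -0.043.

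**Figure D4:**
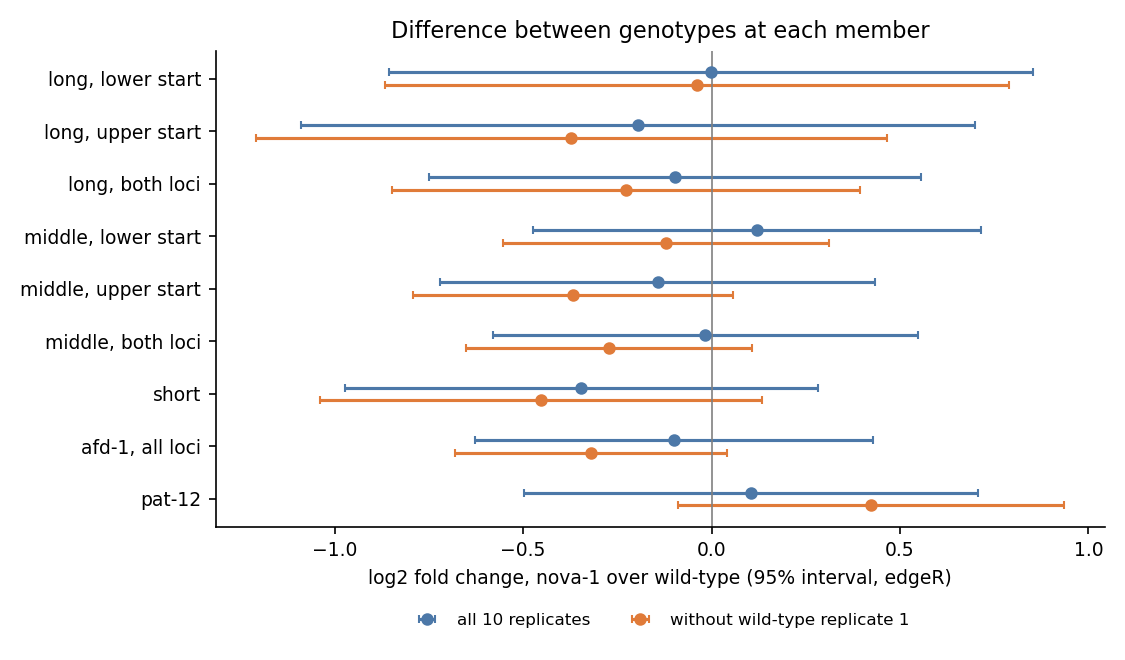
log2 fold change of *nova-1* over wild-type with its 95% interval (horizontal axis, edgeR) for each member and sum, with all 10 replicates in blue and without wild-type replicate 1 in orange. All intervals include 0; for *pat-12* the value moves from 0.11 to 0.42 and for all *afd-1* loci from -0.10 to -0.32.

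The isoform makeup of *afd-1* was compared next, since a share within a sample does not depend on the library size. Over all samples the middle isoform held 1120 of 1615 counts (69.3%), the short isoform 263 (16.3%) and the long isoform 232 (14.4%). The short isoform is counted at a single locus and the others at pairs. The size of these shares, and of those at the common start below, therefore depends on the summing. The middle isoform took 65.3% ± 10.2 of the *afd-1* counts in wild-type and 70.9% ± 6.93 in *nova-1* mutants (SD, n = 5), a difference of 5.62 percentage points (two-sided exact permutation test, p = 0.389, adjusted p = 0.681 over the 7 shares compared). The short isoform took 19.1% ± 5.52 and 14.7% ± 3.98 (exact p = 0.190, adjusted p = 0.537), and the long isoform 15.6% ± 6.33 and 14.4% ± 4.07 (exact p = 0.762, adjusted p = 0.889). The smallest p that 5 against 5 replicates allow is 0.00794.

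Choice of the start and of the end were also compared separately. Of the counts that share the end, 19.6% ± 9.04 in wild-type and 17.0% ± 5.16 in *nova-1* mutants began at the upstream start of the long isoform (two-sided exact permutation test, p = 0.563, n = 5, adjusted p = 0.789). Of the counts that share the start of the middle and short isoforms, 77.0% ± 8.09 in wild-type and 82.8% ± 5.08 in *nova-1* mutants ended at the downstream end (exact p = 0.230, n = 5, adjusted p = 0.537). In wild-type replicate 1 this share was 62.9% (95% Wilson interval 50.5 to 73.8, 62 counts), against 78.9% to 83.2% in the other wild-type replicates and 75.9% to 89.2% in the mutants. Without this replicate the difference fell from 5.72 to 2.19 percentage points, and that of the middle isoform from 5.62 to 1.33.

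**Figure D5:**
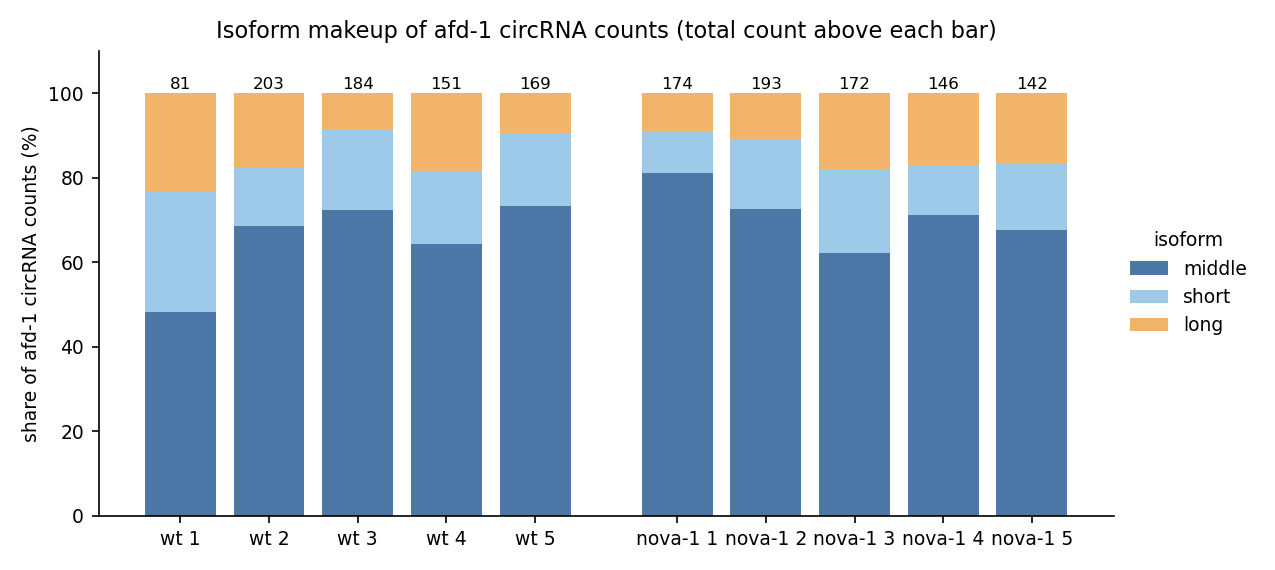
Share of the *afd-1* circRNA counts (vertical axis, percent) held by the middle, short and long isoform in each sample, with the number of *afd-1* counts above the bar. The middle isoform holds 48.1% in wild-type replicate 1 and 62.2% to 81.0% in the other 9 samples.

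The 2 host genes were set against each other within each sample, again free of the library size. The log2 ratio of *pat-12* to *afd-1* counts was -2.05 ± 1.21 in wild-type and -1.87 ± 0.39 in *nova-1* mutants (SD, n = 5), and the difference of 0.18 lay within the replicate spread (p = 0.754, exact permutation test, two-sided). Wild-type replicate 1, with 80 *pat-12* and 81 *afd-1* counts, had a ratio of -0.018, against -3.24 to -2.10 in the other wild-type replicates. Without it the difference was 0.69 (exact permutation test, p = 0.0476, not adjusted). This p fell below 0.05 for no other left-out replicate, and without wild-type replicate 2 the difference was -0.12.

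A list of 44 other genes of cell junctions, matrix attachments and cortical polarity gave little to compare. Its 20 adherens and apical junction genes and its 13 fibrous organelle and matrix attachment genes had no locus in the table. Since the table does not hold all detected circRNAs, this absence does not show that these genes lack circRNAs. Among its 11 genes of polarity and scaffolds, *par-2*, a regulator of embryonic polarity, *wve-1*, a subunit of the actin-regulating WAVE complex, and *gei-4* had 1 locus each. None was called, with log2FC of -0.34 for *par-2*, -0.12 for *wve-1* and -0.10 for *gei-4* (adjusted *P* = 0.572, 0.844 and 0.941, edgeR), and none of the 3 had an unadjusted *P* under 0.05 (0.394, 0.736 and 0.910). Over all loci, 40.4% were called by the first criterion and 28.4% by the second. At these shares the lack of calls at 3 loci cannot set the listed genes apart from the rest. The *gei-4* locus had a mean of 1.87 normalized counts in wild-type and 1.78 in *nova-1* mutants.

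Loci of other genes with the most similar course over the 10 samples were sought by the Pearson correlation of logCPM (log2 of the count relative to the effective library size), given as a description, since loci of 1 sample share its library and depth. For *afd-1* summed, they were *pqn-41* (cel_circ_0000908, r = 0.889), *gcn-1* (0.886) and *gip-1* (0.870) among 136 loci. These likenesses rested largely on wild-type replicate 1, without which r was 0.577, 0.505 and 0.328. For *pat-12* they were *sma-9* (cel_circ_0000820, r = 0.733), *tbc-9* (cel_circ_0000566, 0.695) and *Y61A9LA.3* (0.661) among 140 loci, and without that replicate 0.797, 0.499 and 0.515. After each genotype's mean was subtracted, r was 0.722 for *sma-9*. The *afd-1* isoforms resembled each other little, with r of 0.31 between middle and short, 0.25 between long and short and 0.090 between long and middle. Without wild-type replicate 1 these were 0.42, 0.22 and -0.39.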

How the data were processed

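Total RNA-seq of 5 wild-type and 5 *nova-1* samples was analysed from 1 table of raw counts, which the authors deposited without normalization or pooling. Per the study's methods, the authors predicted loci with CIRI2 v2.0.6 from reads realigned with BWA v0.7.18-r1243 after HISAT2 v2.2.1 (build WBcel235/ce11), and discarded loci below 12 junction reads. They then placed reads on junction scaffolds (200 nt) using Bowtie2 v2.5.4, dropped duplicates with Picard and counted with featureCounts v2.0.1. This counting could split the reads of near-identical scaffolds between paired loci.

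Columns were matched to samples by genotype and replicate number. Host genes were taken from the study's list (138 loci linked), and its values were not used. Exons came from the Ensembl WBcel235 annotation. Counts were tested with edgeR v4.0.16 in R v4.3.3 (glmQLFit, glmQLFTest, TMM, no covariate, no filter), and *P* was adjusted over all loci. Standard errors are the absolute log2FC over the square root of *F*. Normalized counts are counts per effective library size, times its mean over the samples of the same fit. Shares were compared with exact permutation tests, and 0.5 was added to each count in log2 ratios. Named loci were all members, listed junction genes and the 3 most similar loci. *F54A3.2* was named after its values were seen. Members and lists were chosen with earlier results of these data known. Alternatives were RLE factors, DESeq2 v1.42.0, column totals or total sequenced reads as library size, edgeR's low-count filter, summed pairs, robust dispersion, a replicate block, other pseudocounts, pooled counts, leaving out the 3 largest loci and leaving out each replicate. The edgeR fit was checked beforehand on simulated counts. Wilson intervals of shares cover counting error only. Linear RNA and sequences were not analysed here.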

Additional observations from a re-analysis of the deposited data

Results flagged for a closer look

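In *nova-1* mutants, all *afd-1* loci summed had 193 normalized counts in replicate 2 and 144 to 155 in the others. In wild-type, the share of counts from the common start that reached the downstream end was 62.9% in replicate 1 and 78.9% to 83.2% in the others. Each of these replicates was separated from its nearest neighbour by over 0.71 of the whole range in its genotype. Of 34 groups examined 2 held such a replicate, and chance marks about 1 in 20 groups, here 1.7.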

How the results depend on the processing

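Of 366 recomputed values, 321 were unchanged, 41 changed sign and 4 newly passed 0.05. Unchanged meant the same direction and side of the threshold, or for pooled counts, which had no test, the same direction. For numbers of called loci it meant only a count of similar size. By the second criterion these numbers were 31 to 48 with 1 replicate left out, against 40 in the main fit. For the junction list none was called by the second criterion in any setting, and the first was not recounted for it. The members' log2FC lay near 0 and changed sign readily, and no log2FC of a member or sum passed an adjusted *P* of 0.05 (edgeR, DESeq2). With column totals and no TMM, which raised the median of all loci by 0.23, log2FC was 0.22 and 0.0033 for the lower- and upper-start loci of the long isoform, 0.030 for the upper-start locus of the middle isoform, 0.11 and 0.15 for the summed long and middle isoforms and 0.090 for all *afd-1*. Calls by the first criterion then split into 35 higher and 16 lower, against 30 and 27. Without the 3 loci of largest mean count, log2FC was 0.0025 for the lower-start locus of the long isoform and 0.00050 for the summed middle isoform. With the edgeR filter on low counts *pat-12* was at -0.043, and the upper-start locus of the long isoform was dropped and has no value. With only the larger locus of each pair, the difference in the share of the long isoform was 0.624 percentage points, and with pooled counts that of the lower-start locus in the long pair was 3.41. With single loci in place of sums, an alternative chosen after seeing the data, the log2 ratio of the short to the long isoform was 1.14 (lower start) and 1.25 (upper start), against 0.19, and passed the threshold.

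Leaving out each replicate in turn gave log2FC of -0.25 to 0.15 and -0.37 to 0.068 for the lower- and upper-start loci of the long isoform, -0.12 to 0.27 for the lower-start locus of the middle isoform, -0.23 to 0.060 and -0.27 to 0.10 for the summed long and middle isoforms, -0.32 to 0.010 for all *afd-1* and -0.079 to 0.42 for *pat-12*. Differences in share, in percentage points, ranged from -2.88 to 0.815 for the long isoform, -4.77 to 0.731 for the long isoform among counts with the common end, and -5.33 to 4.08 and 3.55 to 6.66 for the lower-start locus of the long and middle pairs. The last was at p = 0.0397 (exact permutation test) without *nova-1* replicate 2. The *pat-12* to *afd-1* log2 ratio differed by -0.12 (without wild-type replicate 2) to 0.69 (without wild-type replicate 1, exact permutation p = 0.0476). The cause of these changes was not tested.

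Replicate numbers recur in both genotypes, but the values showed no likeness by number: deviations of same-numbered samples correlated between -0.163 and 0.091, and 1 of 10 samples was most like its own number. The labels do not state whether same-numbered samples were collected together. With the replicate block, log2FC was 0.082 for the summed middle isoform, -0.022 for all *afd-1* and 0.16 for *pat-12*, and 53 and 31 loci were called by the 2 criteria, against 57 and 40.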
